A study of Lens culinaris with 20 samples.

Results

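The miR482, miR2118 and miR5213 sequences in lentil were described across 7 tissues. A member was any entry of the deposited miRNA table named after a known miRNA of family miR482, miR2118 or miR5213, with entries of identical mature sequence taken as 1 feature. This gave 7 of 1642 entries and 5 of 1464 features: 3 named miR482, 1 named miR2118 and 1 named miR5213. Lentil (Lens culinaris) is a grain legume, and small RNA-seq counts the short RNAs cut from longer precursors. The study holds 20 libraries: flower buds, young pods, stem, mature leaves, shoots and roots with 3 libraries each, and flowers with 2. The labels used here give the tissue and no variety, age or treatment, and the RNA came from pooled material. Separate plants are not named for the libraries of 1 tissue, so the p-values below cover the spread among these libraries, part or all of which may be technical. The table holds miRNAs only, so the tissue labels could not be set against marker transcripts.

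miR482 and miR2118 form a plant superfamily that pairs with transcripts of NBS-LRR disease resistance genes at the stretch coding for the P-loop. A miRNA of 22 nt, in place of the more usual 21 nt, is known to mark its cut target for copying by RDR6, after which Dicer-like enzymes cut the copy into phased siRNAs at regular steps. In Medicago truncatula, miR5213 is known to pair with transcripts of TIR-type NBS-LRR genes, and in rice miR2118 is known for starting phased siRNAs in young inflorescences. The table lists miRNAs and no phased siRNAs or targets, so neither was measured.

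The 5 mature sequences are shown here, since the members are compared by length and seed. Capitals mark the seed, bases 2 to 8 from the 5′ end.
gma-miR482a-3p_L-2_1ss5CA: tTACCAATtccgcccattccta
mtr-miR482-3p_L-1R+2_1ss9CT: tTACCTATacctcccatgccta
mtr-miR5213-5p: tACGTGTGtcttcacctctgaa
osa-MIR2118e-p3_1ss13TA: gAAAAGAGagtcaaagag
aqc-MIR482c-p3_1ss18AG: tGATGATGatgatgatggttc
The prefixes name the species of the known miRNA after which each sequence is named (soybean, Medicago, Medicago, rice and columbine). Whether that miRNA is the nearest known one was not tested. The first 3 sequences were 22 nt long, the rice-named one 18 nt and the columbine-named one 21 nt. No seed was shared between any of the 5.

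The soybean-named sequence, called the miR482a form below, differed from gma-miR482a-3p by C5A, counted from the 5′ end of the soybean miRNA, and lacked its first 2 bases. Its seed therefore starts 2 bases further along than that of the soybean miRNA, and its entry also lists the Medicago precursor mtr-MIR2118 among 10 precursors. The Medicago-named miR482-3p form differed from its 21 nt reference by C9T, lacked its first base and carried 2 bases beyond its 3′ end, so its length is 22 nt and its seed starts 1 base further along. It matched the miR482a form at 18 of 22 bases. Counted along the miR482a form, the 4 differences were A6T, T9A, G12T and T18G, of which A6T lies in the seed. The miR5213 sequence was identical to that of Medicago and matched the miR482a form at 7 of 22 bases. The known soybean and rice mature sequences, from the reference columns of the deposited table, are given for comparison.
soybean gma-miR482a-3p: tCTTCCCAattccgcccattccta
rice miR2118e: tTCCCAATgcctcccatgccta
The rice mature sequence had 18 bases in common with the miR482a form at the same positions.

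The other 2 members carry a family name but not the family's mature sequence. The 18 nt rice-named sequence, which differs from its reference stretch by T13A, lay at bases 20 to 37 of the 177 nt rice precursor. The mature rice miRNA lies at bases 121 to 142 of it, so they overlapped by 0 bases, and the sequence lay on the 5′ side although the table places it on the 3′ arm. The 21 nt columbine-named sequence, which differs by A18G, lay at bases 74 to 94 of a 177 nt precursor whose mature miRNA lies at bases 117 to 138, again an overlap of 0 bases. It is a run of repeated trinucleotides over most of its length and was listed once as 3′ and once as 5′. The rice-named sequence was listed with a 27 nt precursor, and the columbine-named one with precursors of 63 and 68 nt. These 2 members are therefore named by their labels below and are not counted as miR2118 or miR482 mature miRNAs.

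The miR482a form lay on the 3′ side of a 137 nt hairpin in the table, and miR5213 on the 5′ side of a 134 nt hairpin. Both hairpins are shown because the arms are compared below. Capitals mark the listed mature products.
miR482a hairpin: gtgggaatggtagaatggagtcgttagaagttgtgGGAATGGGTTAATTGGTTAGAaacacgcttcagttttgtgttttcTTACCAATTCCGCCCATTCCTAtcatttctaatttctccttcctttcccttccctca
miR5213 hairpin: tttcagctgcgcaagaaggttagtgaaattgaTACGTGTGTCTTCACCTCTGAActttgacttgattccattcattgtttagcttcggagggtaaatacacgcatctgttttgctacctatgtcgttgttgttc
RNAfold gave a minimum free energy of -62.3 kcal/mol for the miR482a hairpin, with 19 bases of the member paired. The miR5213 hairpin had -45.4 kcal/mol and 18 paired bases in the member. Also listed for the miR482a hairpin were 2 products that the table names only as lentil miRNAs. The 5′ arm product lcum-miR-2590_6280-5p lay at bases 36 to 56, where 17 of its bases paired with the member. The 3′ arm product lcum-miR-3176_4995-3p covered the same bases 81 to 102 as the member and differed from the hairpin by T21C, counted from the product's 5′ end. It has the same seed as the member. This variant is assigned by its listed precursor, since the hairpin shown does not hold its exact sequence. Its origin in this hairpin was not tested, but it is counted among the hairpin's reads below.
5′ arm product: gGAATGGGttaattggttaga
3′ arm variant: tTACCAATtccgcccattccca
No other listed product lay in the miR5213 hairpin.

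Library totals here are the reads of the 1464 features, and ran from 72853 reads (roots 2) to 997119 reads (flowers 2). Over all listed entries, identical ones included, these libraries held 84002.5 and 1126068 reads. Levels are given in CPM, the count relative to the library total after scaling by edgeR's TMM, whose factors ran from 0.509 in mature leaves 1 to 1.70 in roots 2. These factors depend on how ties in the counts were rounded, which was upward here. With ties rounded to the even number, the factor of mature leaves 1 was 0.7506. That of flower buds 2 was then 0.5346 in place of 0.8204. The CPM of single libraries therefore depends on this choice as well. The table has a lower limit of about 5 reads, worth between 4.015 CPM (flowers 2) and 60.8 CPM (mature leaves 3), so a value of 0 means fewer than about 5 reads and not absence. Of the 5 members, 4 passed the filter on low counts (filterByExpr), together with 319 other features. The columbine-named sequence did not pass: it was listed only in roots 1 and roots 3, at 2.5 reads in each for each of its 2 entries. In this bulk RNA, fewer cells of a type and less RNA per cell cannot be told apart.

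The miR482a form accounted for nearly all member reads. It totalled 144700 reads and was listed in all 20 libraries, against 7318 reads of miR5213 in 20 libraries, 168 reads of the miR482-3p form in 11 and 83 reads of the rice-named sequence per entry in 14. It made up 88.6% (roots 3) to 97.3% (mature leaves 3) of the member reads of a library. Sequences of 22 nt made up 99.1% (roots 3) to 100% of member reads, and the 3′ arm 88.6% to 97.6%. All members together were 0.897% (roots 3) to 3.72% (flower buds 1) of the reads of all features in a library. Among the 191 features of 22 nt, the miR482a form ranked 2nd or 3rd by tissue mean, and 9th to 17th among all 1464 features. It held 6.84% (mature leaves 1) to 52.6% (young pods 3) of the reads of all 22 nt features.

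The miR482a form was lower in roots than in every other tissue. It reached 8167, 11458 and 6412 CPM in root libraries 1 to 3. In shoots it reached 11659, 29604 and 29628 CPM, in mature leaves 24191, 18738 and 23656 CPM, and in stem 16221, 28322 and 18314 CPM. In flowers it reached 15480 and 27412 CPM, in young pods 24676, 15993 and 24866 CPM, and in flower buds 32613, 23720 and 26203 CPM. All 3 root libraries lay below all 17 others, with the smallest gap between roots 2 and shoots 1. With the library total as scaling this separation was lost, and 9 of the 17 other libraries fell under the highest root library. The ranges of the other 6 tissues overlapped one another.

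Roots averaged 8679 ± 2562 CPM (SD, n = 3), against a mean of 22930 CPM over the other 6 tissues. Flower buds had the highest mean at 27512 ± 4589 CPM (SD, n = 3). By tissue mean they were followed by shoots (23630 CPM), mature leaves (22195 CPM), young pods (21845 CPM), flowers (21446 CPM) and stem (20953 CPM), and no neighbours in that order differed beyond their ranges. The log2 fold change of roots over the mean of the other 6 tissues was -1.40 ± 0.32 (SE, edgeR quasi-likelihood test, adjusted p = 0.00129). A call here needs an adjusted p under 0.05 and a change of at least 1 on the log2 scale. With the library total alone as scaling, the change was -0.74 (adjusted p = 0.0676), and without roots 3 it was -0.98 (adjusted p = 0.0257), neither of which is a call. With the authors' own library factors it was -2.14 (adjusted p = 1.63e-04). Over all alternatives the adjusted p ran from 2.49e-07 to 0.0676.

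**Figure D1:**
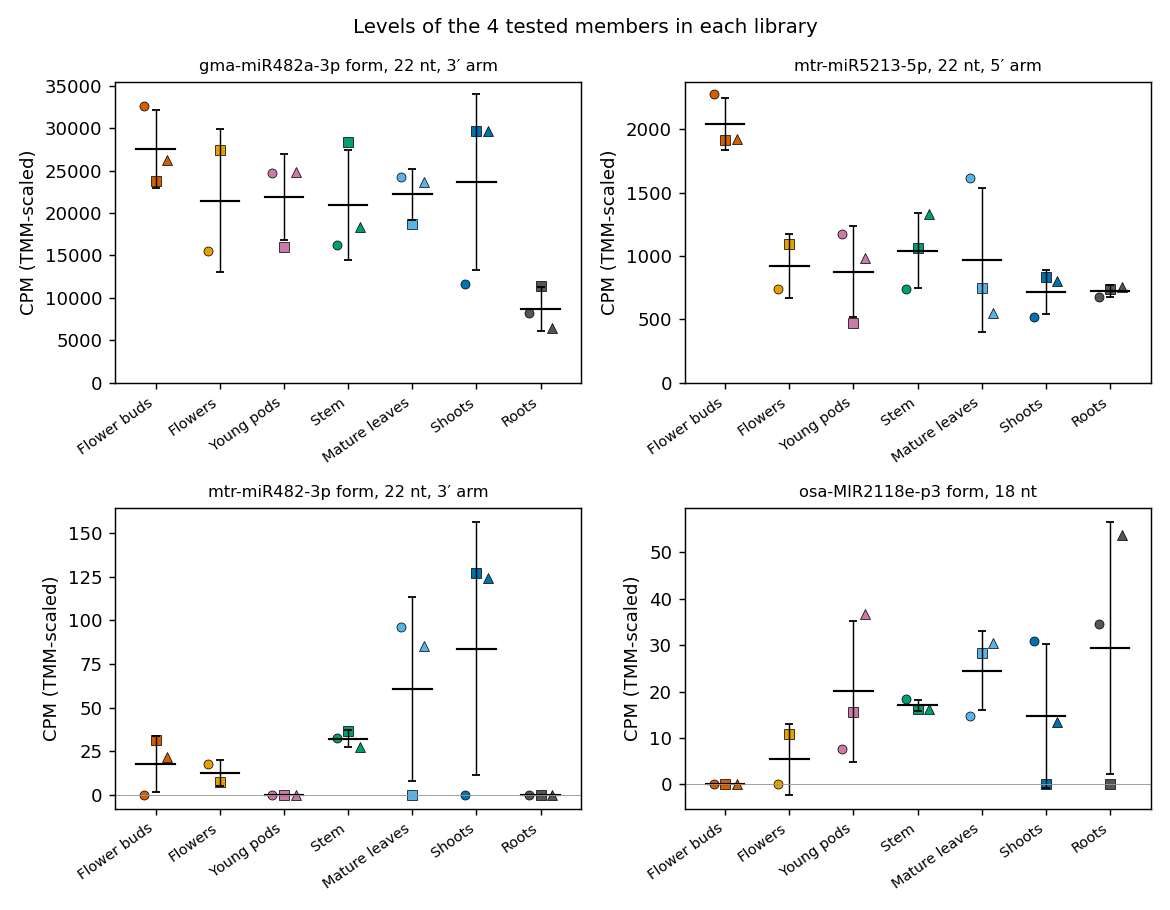
Levels of the 4 tested members in each library, in TMM-scaled CPM on linear axes that differ between panels. Points are libraries (circle, square and triangle for replicates 1, 2 and 3), horizontal lines tissue means and bars the SD. The miR482a form is lowest in the 3 root libraries, at 6412 to 11458 CPM, and miR5213 is highest in the 3 flower bud libraries, at 1914 to 2275 CPM.

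The root change depends on the scaling, and the scalings moved all features together. Taken feature by feature, the log2 change in roots moved from its TMM value by a median of 0.58 with the library total, 0.21 with DESeq2's size factors and -0.76 with the authors' factors. The median log2 change itself, over all features tested in roots, was -0.08 with TMM, 0.55 with the library total and -0.93 with the authors' factors. The miR482a form lay below that median under all 3. In roots, 168 of 323 features (52.0%) were called, 104 higher (32.2%) and 64 lower (19.8%). With the library total the calls were 123 higher and 42 lower, and with the authors' factors 80 higher and 90 lower. The lower counts can miss features listed at 0 in every root library. The miR482-3p form, at 0 in all root and young pod libraries, had an unadjusted p of 0.9995 in roots (edgeR). Such a test cannot call it, so shares of features called lower may be too low, here and in other tissues.

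miR5213 was highest in flower buds. It reached 2275, 1914 and 1926 CPM in the 3 flower bud libraries. Roots held 673.5, 743.4 and 756.0 CPM, shoots 520.3, 837.2 and 801.7 CPM, and mature leaves 1617, 743.9 and 547.3 CPM. Stem held 736.0, 1059 and 1329 CPM, flowers 742.0 and 1098 CPM, and young pods 1172, 474.3 and 982.4 CPM. The flower bud libraries lay above all others, the nearest of which was mature leaves 1, the library with the lowest TMM factor. With the library total, 1 of the 17 other libraries reached above the lowest flower bud library. The other 6 tissues overlapped, with means from 719.7 CPM in shoots to 1042 CPM in stem.

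Flower buds averaged 2038 ± 206 CPM (SD, n = 3), against a mean of 875 CPM over the other 6 tissues. The log2 fold change was 1.23 ± 0.31 (SE, edgeR, adjusted p = 0.00545). It was called under every alternative run, with log2 changes of 1.01 with the library total and 1.73 with the authors' factors, and adjusted p-values from 1.25e-04 to 0.0273. In roots, the log2 fold change of miR5213 was -0.51 ± 0.36 (adjusted p = 0.253). That value was 0.14 with the library total and -1.31 (adjusted p = 0.00863) with the authors' factors. The sign thus turned with a scaling that moved all features, and miR5213 lay below the median of all features in roots with TMM and with both of these scalings. Between reproductive and aerial vegetative tissues, neither abundant miRNA passed the test. The log2 fold change was 0.39 ± 0.26 for miR5213 (adjusted p = 0.294) and 0.08 ± 0.23 for the miR482a form (adjusted p = 0.99982).

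The ratio of both miRNAs within a library needs no scaling between libraries. Flower buds held 6.98, 8.07 and 7.35 reads of miR5213 per 100 reads of the miR482a form, and roots 8.25, 6.49 and 11.8. Shoots held 4.46, 2.83 and 2.71, mature leaves 6.68, 3.97 and 2.31, and stem 4.54, 3.74 and 7.26. Flowers held 4.79 and 4.004, and young pods 4.75, 2.97 and 3.95. The ratio was thus highest in flower buds and roots, where all 6 libraries lay above those of shoots, flowers and young pods, while mature leaves 1 and stem 3 reached into their range. These ratios describe the libraries and were not tested.

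**Figure D2:**
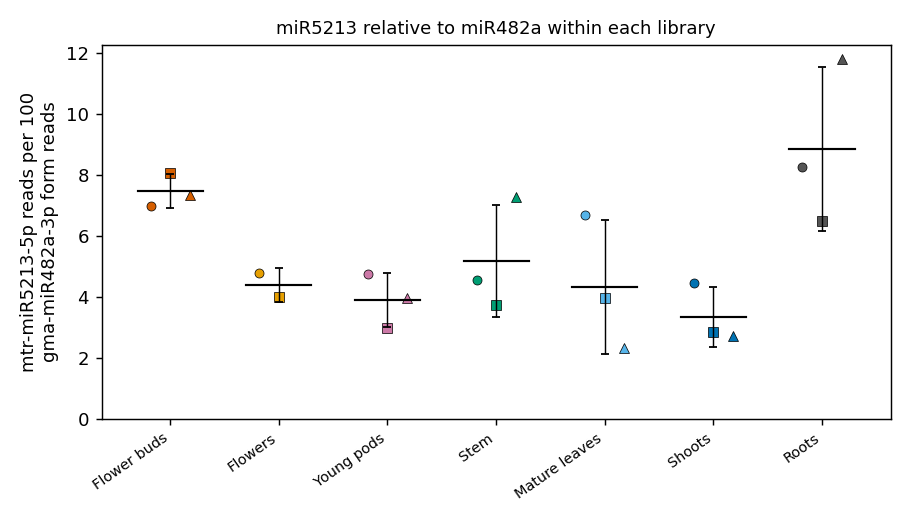
Reads of miR5213 per 100 reads of the miR482a form in each library, a ratio that does not depend on scaling between libraries. Points are libraries (circle, square and triangle for replicates 1, 2 and 3), lines are tissue means and bars the SD. Flower buds (6.98 to 8.07) and roots (6.49 to 11.8) lie highest.

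The flower bud level of the miR482a form itself did not pass the test, at a log2 fold change of 0.55 ± 0.28 (adjusted p = 0.155). With the authors' factors, which shifted the median of all features in flower buds by 0.45, it was 1.05 and passed. Flower buds had 57 calls higher (17.6%) and 20 lower (6.19%) among all features. With the authors' factors these became 84 higher and 13 lower, and with ties rounded to the even number 76 higher and 13 lower.

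The miR482-3p form, also 22 nt from a 3′ arm, was rare. It was listed at 0 in all 3 root and all 3 young pod libraries, and its values above 0 were 5 to 37 reads. Shoots held 0, 127.3 and 124.1 CPM, mature leaves 96.2, 0 and 85.1 CPM, and stem 32.7, 36.7 and 27.5 CPM. Flowers held 17.7 and 7.23 CPM, and flower buds 0, 31.7 and 21.5 CPM. Shoots and mature leaves were thus highest where it was listed, but each also had a library at 0, so they overlapped every other tissue.

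The mean in shoots, 83.8 CPM with shoots 1 counted as 0, was 2.38-fold the limit of 5 reads per library in roots. It was 4.83-fold that limit in young pods. With identical entries summed the shoot mean was 66.7 CPM, and the folds over the same limits were 1.90 and 3.85. Against the mean of the other 6 tissues the miR482-3p form was called higher in shoots (edgeR, adjusted p = 0.0194) and in mature leaves (adjusted p = 0.0254). No fitted fold change is given because 2 tissues were at 0 throughout. Those zeros lower the mean of the other tissues, so the need for a change of at least 1 added little to these calls. The shoot call was lost with DESeq2's test (adjusted p = 0.0697), without shoots 2 (0.136) and without shoots 3 (0.148). The mature leaf call was lost with DESeq2's test (0.144), with ties rounded to the even number (0.0713) and without 11 of the 20 libraries in turn (highest 0.154, without mature leaves 1). It was also called lower in reproductive tissues (flowers, young pods and flower buds) than in aerial vegetative tissues (shoots, mature leaves and stem), at adjusted p = 0.0174. The zeros in young pods lower the reproductive mean in the same way. The reproductive call was lost without flowers 1 (0.0735) or flowers 2 (0.0929).

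The 18 nt rice-named sequence was listed at 2.5 to 13.5 reads in each of 2 identical entries, which carry the same values. It was at 0 in all 3 flower bud libraries. Roots held 34.4, 0 and 53.6 CPM, shoots 30.9, 0 and 13.4 CPM, and mature leaves 14.8, 28.2 and 30.4 CPM. Stem held 18.4, 16.3 and 16.3 CPM, flowers 0 and 10.8 CPM, and young pods 7.61, 15.6 and 36.8 CPM. Mature leaves, stem and young pods had no library at 0, but a 0 stands for anything under the limit of the table, so a separation of flower buds from them cannot be read from these values. It was called lower in flower buds (edgeR, adjusted p = 0.0242) and in reproductive than in aerial vegetative tissues (0.0479). Both calls rest on values at the limit of the table. The flower bud call was lost with no filter (0.0842) and without any 1 of the flower bud or flower libraries (0.0504 to 0.99978), and the reproductive call with DESeq2's test (0.0648), with no filter (0.311) and without most single libraries (up to 0.244). Without roots 1 or roots 3 the sequence did not pass the filter. Its root level was not called (adjusted p = 0.0795), but was called higher with the library total (0.0359) and without roots 2 (0.0296).

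Across the 7 tissues, 3 of the 4 tested members changed (edgeR F-test): the miR482a form (adjusted p = 0.0286), miR5213 (0.0405) and the miR482-3p form (0.0248). This stands beside 74.3% of all 323 features. The rice-named sequence did not pass (0.114). For the miR482a form the p rose to 0.0743 with DESeq2's size factors, 0.347 with the library total, 0.129 without roots 3 and 0.0510 without stem 3. For miR5213 it rose to 0.0583 with no filter, 0.0741 without flower buds 1 and 0.0502 without shoots 1. For the miR482-3p form it lay between 0.0507 and 0.0662 without roots 1, roots 2, shoots 2, shoots 3, stem 2 or flower buds 3.

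By tissue, 1 of 4 tested members was called lower in roots (52.0% of all features called in either direction), 1 higher in shoots (14.2%, and 11.5% higher) and 1 higher in mature leaves (31.0%, and 21.1% higher). In flower buds 1 was called higher and 1 lower (23.8%), and 2 were called lower in reproductive tissues (30.0%, and 13.6% lower). The reproductive calls over all features were 53 higher and 44 lower, and 80 higher and 33 lower with ties rounded to the even number. With edgeR, 0 were called in stem (30.3%), flowers (15.2%) and young pods (20.7%). At an unadjusted p under 0.05 these counts were 1, 0 and 0, and with DESeq2's test 0, 0 and 1, the last being the miR482-3p form, lower in young pods. That form was at 0 throughout young pods and roots, and its unadjusted edgeR p was 0.9995 in both. The edgeR test could therefore not call it in either tissue, and the counts there say nothing about it. Of the other 44 features of 22 nt that were tested, 15 were called in roots (6 higher, 9 lower) and 9 in flower buds (all 9 higher).

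**Figure D3:**
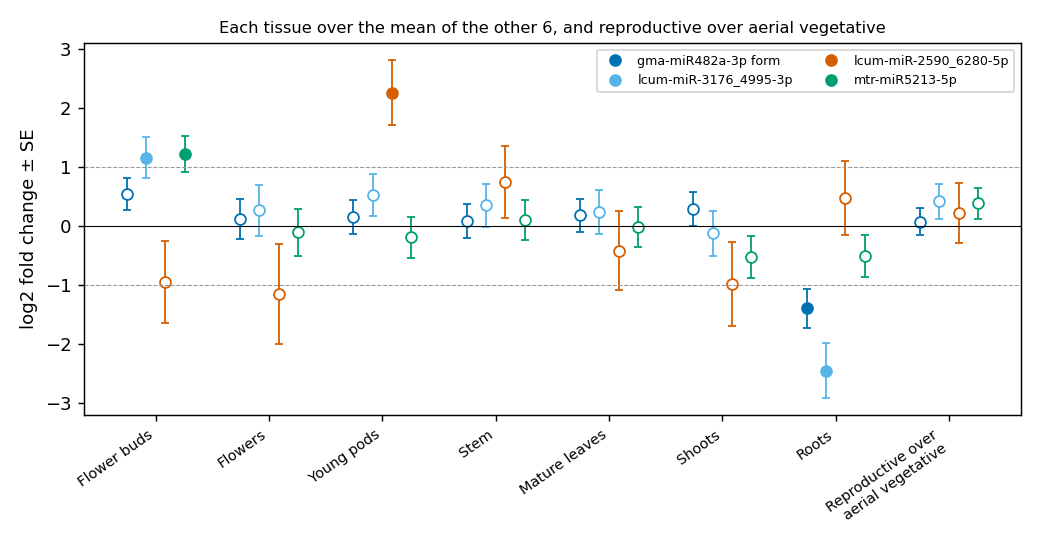
Log2 fold change with its SE for the miR482a form, both other products of its hairpin and miR5213, in each tissue over the mean of the other 6 and in reproductive over aerial vegetative tissues. Filled points passed the test (adjusted p under 0.05 and at least 1 on the log2 scale, dashed lines). In roots both 3′ arm products lie below -1 and the 5′ arm product at 0.48.

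The arms of the miR482a hairpin were compared next, since the opposite strand of a miRNA duplex is usually degraded. The 3′ arm variant totalled 11186 reads and the 5′ arm product 7149 reads, against 144700 reads of the member. The 3′ variant followed the member over the 7 tissue means (r = 0.96 on log2(CPM + 1)), whereas the 5′ product did not (r = -0.27). These correlations are descriptions, and the points share libraries and scaling.

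The 3′ variant was lowest in roots, at 290.8, 468.7 and 214.5 CPM, and averaged 325 ± 130 CPM there (SD, n = 3), against 1822 CPM over the other 6 tissues. All 3 root libraries lay below all others, the nearest of which was shoots 1 at 723.2 CPM. With the library total, 2 other libraries fell under the highest root library. The log2 fold change was -2.45 ± 0.46 (SE, edgeR, adjusted p = 2.28e-04). It was called under every alternative, with -1.83 with the library total, -3.17 with the authors' factors and -3.04 with no filter. In flower buds the variant reached 3645, 2420 and 2265 CPM, with a log2 fold change of 1.17 ± 0.34 (adjusted p = 0.0173), and young pods 3 (3257 CPM) lay within that range. That call was lost with the library total (0.90, adjusted p = 0.133) and without flower buds 1 (0.91, adjusted p = 0.114). As a share of the 3′ arm, the variant made up 3.24% to 3.93% in roots, below all 17 other libraries, and 7.96% to 10.1% in flower buds.

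The 5′ arm product was not called lower in roots, but the sign of its change there depended on the scaling. Roots held 681.2, 1091 and 1281 CPM of it, a mean of 1018 ± 307 CPM (SD, n = 3), against 995 CPM over the other 6 tissues. Those 6 tissues differed widely, from 388 CPM on average in flowers to 2936 CPM in young pods. The log2 fold change in roots was 0.48 ± 0.63 (SE, edgeR, adjusted p = 0.611). It was 1.14 (adjusted p = 0.107) with the library total and -0.40 (adjusted p = 0.787) with the authors' factors. Under TMM and both of these scalings it lay above the root changes of both 3′ arm products, a difference that was not tested. As a share of the reads of the hairpin, the 5′ arm made up 7.45%, 8.38% and 16.2% in roots. It made up 2.57%, 1.66% and 1.35% in shoots, 4.53%, 1.52% and 0.973% in mature leaves, and 3.59%, 4.31% and 7.25% in stem. In flowers it was 3.01% and 0.881%, and in flower buds 1.67%, 1.42% and 1.11%. The 3 root libraries thus lay above those of all these tissues, stem 3 being the nearest. The gap to stem 3 was within counting error for roots 1 and roots 2. Their Wilson intervals, 6.10% to 9.08% and 7.12% to 9.83%, overlapped that of stem 3 (6.81% to 7.73%). The interval of roots 3 (14.4% to 18.2%) did not. These shares were not tested.

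Young pods differed among themselves more than any other tissue in this share, at 20.5%, 10.3% and 0.335%. The lowest value, in young pods 3, came from 18 of 5371 reads, with a 95% Wilson interval of 0.212% to 0.529% that covers counting error only. The 5′ product reached 6750, 1965 and 94.6 CPM in young pods 1, 2 and 3. The first of these was the highest of all 20 libraries and the last the lowest. The log2 fold change in young pods was 2.26 ± 0.55 (edgeR, adjusted p = 0.00471), and 1.04 (adjusted p = 0.343) without young pods 1. The member itself reached 24676, 15993 and 24866 CPM in the same libraries.

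**Figure D4:**
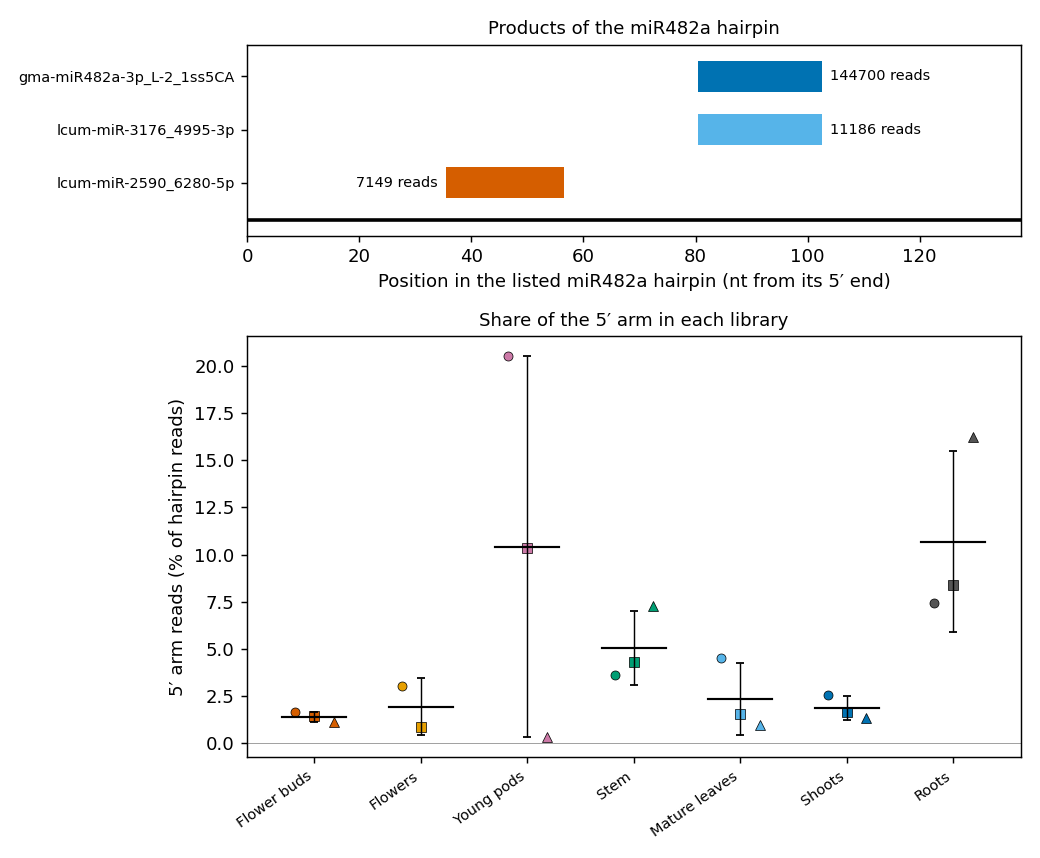
Top, the 3 listed products along the miR482a hairpin with their total reads. Bottom, the share of hairpin reads from the 5′ arm in each library (circle, square and triangle for replicates 1, 2 and 3), with tissue means and SD. Roots lie at 7.45% to 16.2% and young pods spread from 0.335% to 20.5%.

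Features most like each member were sought among 204 features of other families over the 7 tissue means of log2(CPM + 1). The miR482a form was most like gma-MIR393c-p3 (r = 0.93), named as a 3′ arm product of the miR393 family. Next came mtr-miR171d (r = 0.93) and aly-miR172b-5p_2ss2CT7CT (r = 0.92). All 3 had their lowest mean in roots, which follows from choosing them by likeness to a profile lowest there and is no separate result. In roots gma-MIR393c-p3 and the miR172 form were listed at 0, which entered r as 0, and mtr-miR171d at 32.2 CPM. miR5213 was most like ath-miR166a-3p_L+2R-2_2 and ath-miR166a-3p_L+2R-2_1 (r = 0.82 each), which carry the same counts, and then ath-miR166a-3p_1ss21CA (r = 0.72). The first of these reached 65298 CPM in flower buds, a level that the choice by likeness also favours. miR166 pairs with transcripts of class III HD-ZIP transcription factors. The nearest features to the rare members were ath-miR166a-3p_L+3R-2 for the miR482-3p form (r = 0.89) and ath-miR156a-5p_R+2 for the rice-named sequence (r = 0.82).

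Other families, mostly known in plants as starters of phased siRNAs or as regulators of the small RNA machinery, were listed for context. The list also holds miR2119, which is not described here as either. Of the 17 families, 9 had a feature among those read, 33 features in all. Tested were 14 features of 6 families: miR390, miR393, miR858, miR168, miR162 and miR2119. The 1 miR2119 feature is in the counts below, among those lower in roots and higher in young pods, mature leaves and stem. In roots 1 of the 14 was called higher (32.2% of all features) and 4 lower (19.8%), in young pods 8 higher (16.1%), in mature leaves 4 higher (21.1%) and in stem 3 higher (22.6%). In flower buds 1 was called higher (17.6%), and in reproductive tissues 3 were higher and 1 lower (30.0% called in either direction). In shoots and flowers 0 were called with edgeR, where 3 and 4 had an unadjusted p under 0.05 and DESeq2's test called 3 and 0. DESeq2's test called 6 in young pods, 1 in stem and 0 in flower buds. Over the 8 of the 14 that were above 0 in at least 1 library of every tissue, the median log2 fold change was 1.05 in young pods and -0.95 in roots, against -0.11 and -0.26 over all 155 such features. ath-miR390a-5p, which starts the TAS3 siRNAs, averaged 51071 ± 14007 CPM in young pods and 46366 ± 7430 CPM in flower buds (SD, n = 3 each), against 23293 to 26924 CPM in the other tissues. It stayed under the change of 1 on the log2 scale in both (0.86, adjusted p = 0.00862, and 0.69, adjusted p = 0.0307).

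ath-miR168a-5p, which pairs with the ARGONAUTE1 transcript, averaged 41712 ± 23517 CPM in young pods (SD, n = 3), with a log2 fold change of 1.51 ± 0.28 (edgeR, adjusted p = 5.37e-04). gma-miR162a_R+1, of the family that pairs with the DICER-LIKE1 transcript, was called higher in mature leaves (1.69 ± 0.34, edgeR, adjusted p = 6.30e-04) and in stem (1.62 ± 0.34, adjusted p = 0.00128). It averaged 5787 ± 5258 CPM in mature leaves and 5549 ± 1963 CPM in stem (SD, n = 3 each), so the leaf libraries differed widely. mtr-miR2119_1ss13GC was listed at 0 in all root libraries and called lower there (adjusted p = 7.60e-04). miR1509, miR1514 and miR828 had features below the filter.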

How the data were processed

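The members, the lists and the comparisons were chosen with earlier results of these data known. Per the labels, RNA extracted with TRI Reagent and a plant RNA kit went into TruSeq small RNA libraries. No aligner, caller or build is named in the labels used here. Per the file headers, the raw columns hold reads per entry. They are expected counts, since 25.8% of the deposited values above 0 were not whole (tolerance 0.01). Per the file headers, the other columns are normalized. This deposited signal equals the raw column times 1 factor per library and served only as an alternative scaling. The deposited table also gives sequence lengths, which set the 22 nt class.

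Of identical mature sequences the entry with the highest total was kept. Counts were rounded to whole numbers with ties upward, filtered with filterByExpr (323 features kept) and fitted with edgeR 4.0.16 (R 4.3.3) over all 20 libraries with tissue as the term. Each tissue was set against the mean of the other 6, with Benjamini-Hochberg adjustment over the 323 features. DESeq2 1.42.0 served as an alternative, and hairpins were folded with RNAfold 2.7.2. No fitted fold is given where a tissue was at 0 throughout. All members are named, with the 3 features most like each tested member and the most abundant features of the context families. The fit was tested on simulated data with a smaller dispersion than the common value of 0.44 estimated here. The changes planted there were larger than those fitted for the members. That test therefore does not cover the spread and changes described above. No genome was used, so no positions in a genome are given.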

Additional observations from a re-analysis of the deposited data

How the results depend on the processing

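Counts of members called moved as follows. In roots 2 were called with the authors' factors and with no filter, in shoots 0 with DESeq2's test and with the replicate block, and in mature leaves 0 with DESeq2's test and with ties rounded to even. In young pods 1 was called with DESeq2's test. In flower buds 1 was called with no filter, with the replicate block and with ties rounded to even. In reproductive tissues 1 was called with DESeq2's test, with no filter, with the replicate block and with ties rounded to even. This rounding was chosen after seeing the data, and it took the rice-named sequence out of the test. Leaving out 1 library at a time gave 2 to 3 members across tissues, 0 to 2 in roots, 0 to 1 in shoots, 0 to 1 in mature leaves, 0 in stem, flowers and young pods, 1 to 2 in flower buds and 0 to 2 in reproductive tissues. Among the log2 changes followed through every alternative, the 1 direction that turned was miR5213 in roots, 0.14 with the library total. Changes outside that set that were not called turned as well. The 5′ arm product in roots went from 0.48 to -0.40 with the authors' factors. The miR482a form in stem went from 0.09 to -0.20 with the library total. Apart from scaling, filter and number of libraries, the cause was not tested.

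With the replicate block, the adjusted p of miR5213 across tissues was 0.126, of the miR482-3p form in shoots 0.0663 and of the rice-named sequence in flower buds 0.0730 and in reproductive tissues 0.149. The numbers did not pair the libraries, with correlations of -0.244 to 0.285 for equal numbers (median 0.0293) and -0.285 to 0.251 for different numbers (median -0.0105). No filter gave 327 features called in roots, 96 in flowers and 115 in young pods, and that rounding 79 in flowers. Leaving out 1 library gave 25 to 49 in shoots, lowest without shoots 2 (shoots 3: 26), and 30 to 77 in flowers, lowest without flowers 2. No member repeated another member's counts, so counting repeats gave no other value. Depth limits the miR482-3p form and the rice-named sequence, whose values lie between 2.5 and 37 reads.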
